A study of Mus musculus with 12 samples.

Results

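Cyclins, cyclin-dependent kinases (CDKs) and CDK inhibitors were followed through the transition from mouse embryonic stem cells (ESCs) to epiblast-like cells (EpiLCs). The group was made up of 10 genes taken by name from a table of 22462 genes, and all 10 were found by their identifiers: the D type cyclins Ccnd1, Ccnd2 and Ccnd3, the cyclins Ccne1, Ccna2 and Ccnb1, the kinases Cdk1 and Cdk4, and the inhibitors Cdkn1a and Cdkn1b. Ribosome protected fragments (RPFs), the stretches of mRNA that a ribosome shields from nuclease, were sequenced beside total RNA. There were 3 libraries in each of 4 groups, 12 in all.

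ESCs were kept naive in Knockout DMEM with 15% Fetal Bovine Serum, LIF and the 2i inhibitors PD0325901, which blocks MEK, and CHIR99021, which blocks GSK3. EpiLCs were made by plating such ESCs and collected about 56 hours after LIF and 2i were taken away. The ESC cultures thus held LIF, a MEK inhibitor and a GSK3 inhibitor that the EpiLC cultures did not. The loss of any of these and the change of cell state cannot be told apart. For the differentiation, the study's methods list a reporter line derived from V6.5, in which miR-290 and miR-302 loci carry fluorescent proteins. The titles only number the replicates. The paper calls its ribosome profiling replicates biological, without saying whether they were separate cultures or differentiations. P-values thus measure the spread between these libraries, part of which may be technical.

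A cyclin binds a CDK and switches on its kinase, and the levels of most cyclins rise and fall as cells divide. D type cyclins with Cdk4 act in G1 phase downstream of growth signals, cyclin E and cyclin A bring cells into and through S phase, and cyclin B with Cdk1 drives mitosis. The inhibitors p21 (Cdkn1a) and p27 (Cdkn1b) bind cyclin and CDK pairs, and ESCs are known for a short G1 phase and low dependence on D type cyclins.

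ESCs and the early epiblast are also known for microRNAs of the miR-290 and miR-302 clusters, named for their part in the stem cell cycle, which bind target mRNAs mostly through the seed (bases 2 to 8 from the 5′ end). They are printed because they share their seed, AAGUGCU, which is in capitals (RefSeq, GRCm38.p6, chromosome 3 for miR-302 and chromosome 7 for the others).
mmu-miR-302b-3p, chr3:127545275-127545297, plus strand: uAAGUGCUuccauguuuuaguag
mmu-miR-302d-3p, chr3:127545665-127545687, plus strand: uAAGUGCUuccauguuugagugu
mmu-miR-291a-3p, chr7:3218968-3218989, plus strand: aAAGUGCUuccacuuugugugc
mmu-miR-294-3p, chr7:3220691-3220712, plus strand: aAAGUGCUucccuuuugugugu
mmu-miR-295-3p, chr7:3220815-3220837, plus strand: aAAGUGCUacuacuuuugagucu
The complement of this seed is AGCACTT, and a match was counted where a 3′ UTR held AGCACTT or GCACTTA on its own strand. At least 1 match lay in the UTR of 16.4% of 20752 genes (1 transcript per gene, Gencode M21, GRCm38) and in that of Ccnd1, Ccnd2, Cdk4 and Cdkn1a, which is 4 of the 10. The median UTR of all these genes was 847 nt, shorter than that of each of the 4. UTR length was not allowed for in these shares. The matched runs are shown 5′ to 3′ with the match in capitals, and in the second Cdkn1a run the capitals include an A after the match.
Ccnd1, chr7:144931676-144931695, minus strand: attccatttcaaAGCACTTt
Ccnd2, chr6:127129340-127129359, minus strand: ttccattagaaaAGCACTTt
Cdk4, chr10:127067550-127067569, plus strand: aaatgcttgccgAGCACTTg
Cdk4, chr10:127067833-127067852, plus strand: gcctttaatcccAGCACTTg
Cdkn1a, chr17:29099816-29099835, plus strand: tcagacctgaatAGCACTTt
Cdkn1a, chr17:29100488-29100507, plus strand: cgtgggtgtcaaAGCACTTA
Ccnd1 had its match at base 924 of a UTR of 2676 nt and Ccnd2 at base 988 of 5173 nt, counted from the first base after the stop codon. Cdk4 had matches at bases 541 and 824 of 899 nt and Cdkn1a at bases 435 and 1107 of 1334 nt. The other 6 genes held none in this window. A match is a stretch of letters, and binding was not measured. Of the 4 genes with a match, Ccnd2 was higher and Cdkn1a lower in EpiLCs beyond the fold limit of the tests, while Ccnd1 and Cdk4 stayed under the fold limit.

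The shallowest library was EpiLC RPF replicate 2 with 2681439 counts and the deepest was EpiLC total RNA replicate 1 with 14655015, where 3 counts are worth 1.12 and 0.205 CPM (library-scaled counts, here with TMM factors). All 10 genes passed the filter of at least 3 CPM in at least 3 libraries and were among the 11750 tested. Ccnd2 passed through its EpiLC libraries alone, so that among genes this low only those that differ are tested. The labels held against the markers. Zfp42, Esrrb and Klf4, which mark naive ESCs, had log2 fold changes of EpiLC over ESC of -3.45, -4.998 and -5.52 in total RNA. Dnmt3b and Otx2 of the later epiblast had 2.98 and 3.11. Fgf5, also of the later epiblast, had 5.76. It passed the filter through EpiLC libraries alone, so that its call as higher is no evidence of direction. Among ESC total RNA libraries, replicate 2 had the most Dnmt3b counts (2125, against 1341 and 1490). The same held for Otx2 (91, against 59 and 63) and Fgf5 (25, against 1 and 3). Ccnd2 was also highest there (12 counts, against 4 and 4) and Cdkn1a lowest (24.8 CPM, against 33.9 and 36.9). Whether this library held cells closer to EpiLCs was not tested. The summed level of 5 fibroblast markers (Col1a1, Col1a2, Col3a1, Lum and Dcn) went from 1.26 to 1.54 CPM in ESC total RNA to 10.1 to 11.7 CPM in EpiLC total RNA, and from 2.44 to 3.62 to 17.4 to 22.4 CPM in RPF. Its tested members, Col1a1 and Dcn, had at most 1.20 and 0.253 CPM in ESC total RNA and at least 3.896 and 3.07 CPM in EpiLC total RNA. Dcn passed the filter through EpiLC libraries alone. Col1a1 reached 3 CPM in ESCs only in RPF replicate 2 (17 counts) and could not have passed without EpiLC libraries. The calls of Col1a1 and Dcn as higher are thus no evidence of direction. Lum was at 0 in total RNA of either cell type. Summed primitive endoderm markers (Gata4, Gata6, Sox17 and Pdgfra) were at 3.52 to 4.81 and 4.74 to 5.16 CPM in total RNA of ESCs and EpiLCs, and neither tested gene (Gata4 and Pdgfra) was called. Summed trophoblast markers (Cdx2, Elf5, Eomes and Krt7) were at 6.74 to 8.24 and 7.22 to 11.2 CPM, with Elf5 at 0 in total RNA, Krt7 called higher (it too passed through EpiLC libraries alone) and Eomes called lower. The part of such cells in the results below was not tested. In bulk samples, fewer cells of a type and less RNA per cell cannot be told apart.

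The first question was which of these genes changed in mRNA level, in ribosome footprints or in footprints for a given amount of RNA (translational efficiency or TE, RPF divided by total RNA). Ccnd2 was called higher, and Ccnd3 and Cdkn1a lower, both in total RNA and in RPF, and the other 7 were not called. A gene was called at a limma adjusted p below 0.05 with a log2 fold change of EpiLC over ESC beyond 1 in size. In total RNA 1 of 10 was called higher, against 14.6% of all tested genes, and 2 were called lower, against 9.7%. In RPF the counts were again 1 and 2, against 15.4% and 10.6%. The 1 called higher was Ccnd2, which passed the filter through EpiLC libraries alone, so that its call is no evidence of direction. By adjusted p alone, 5 were higher and 2 lower in total RNA (34.6% and 30.7% of all genes) and 5 and 2 in RPF (31.1% and 28.7%). Ccnd2 was among the 5 in both assays. The median log2 fold change of the 10 was 0.11 in total RNA and 0.21 in RPF, against 0.03 and 0.01 over all tested genes.

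**Figure D1:**
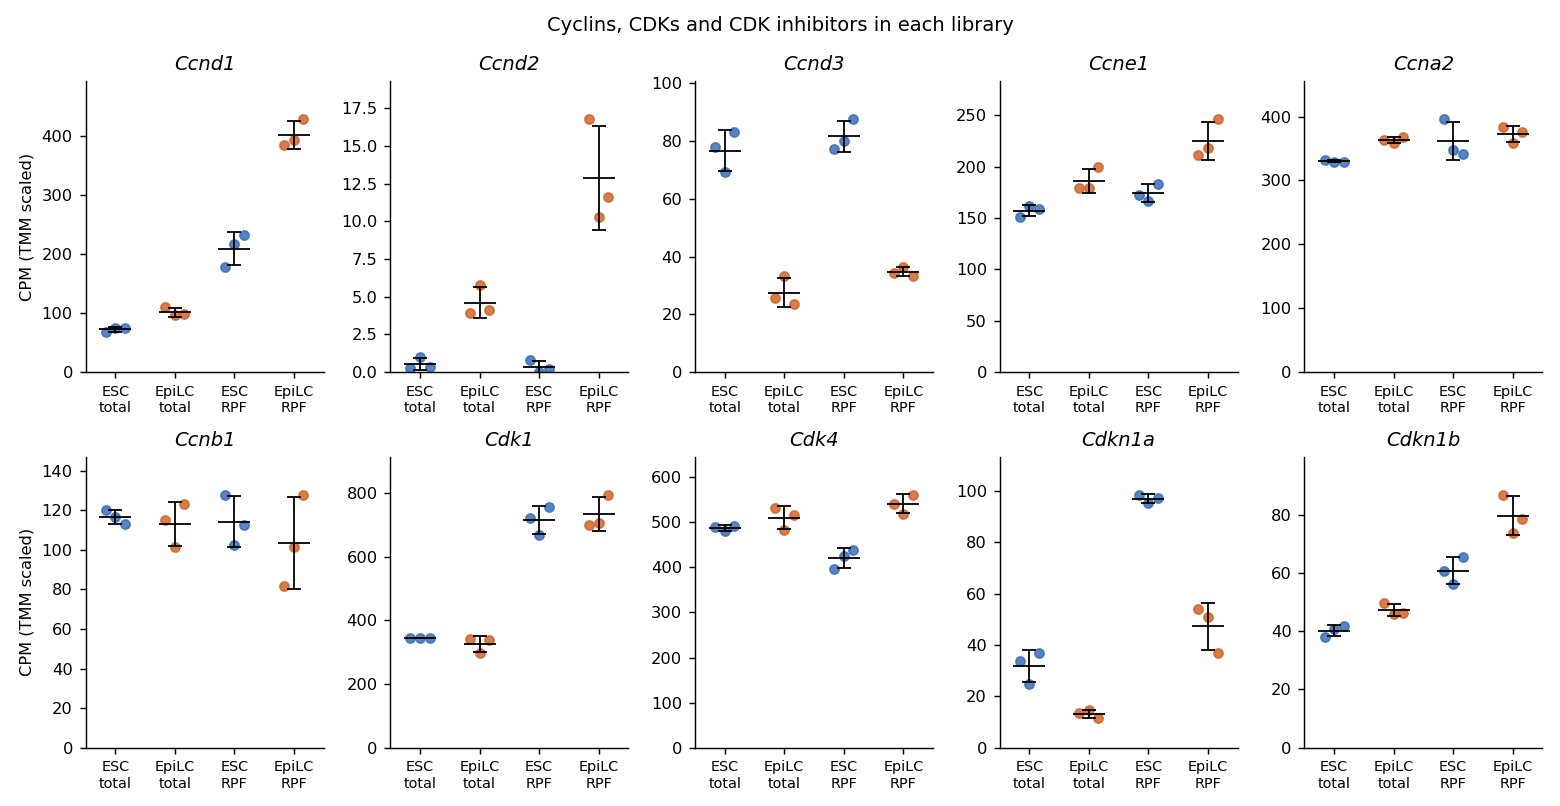
CPM of each gene (vertical axis, linear from 0, its own scale in each panel) in each library of the 4 groups, blue for ESC and orange for EpiLC, with the mean and SD of 3 libraries in black. Ccnd3 and Cdkn1a sat lower in every EpiLC library than in any ESC library of the same assay, Ccnd2 sat higher, and Ccnb1 overlapped.

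The D type cyclins moved apart. Ccnd1 (ENSMUSG00000070348.5, minus strand of chromosome 7, counted coding sequence from 144932607 to 144939648, mm10), the D cyclin best known as a target of MEK and ERK signals, had 67.4, 74.3 and 75.4 CPM in ESC total RNA and 111, 96.1 and 98.5 CPM in EpiLC total RNA. In RPF it had 178, 217 and 233 CPM in ESCs and 385, 393 and 429.5 CPM in EpiLCs. Every EpiLC library was above every ESC library in both assays, and the distance was wider in RPF. On the log2 scale total RNA differed by 0.51 ± 0.09 (SE, limma adjusted p = 4.1e-05) and RPF by 0.95 ± 0.08 (adjusted p = 4.11e-10). Both exceeded the spread of the libraries and stayed under the fold limit. Without ESC RPF replicate 3 the RPF value was 1.02 (limma adjusted p = 4.05e-10, against at most 1.52e-08 without any other library), which would be called.

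Ccnd2 (ENSMUSG00000000184.12, minus strand of chromosome 6, 127130335 to 127150728) was close to absent in ESCs. It had 4, 12 and 4 counts in ESC total RNA and 6, 0 and 2 in ESC RPF, which is at most 1.01 CPM. In EpiLCs it had 59, 36 and 36 counts in total RNA (3.94, 5.77 and 4.13 CPM) and 81, 27 and 62 in RPF (16.8, 10.3 and 11.6 CPM). The cell types did not overlap in either assay. Fitted to these counts, total RNA changed by 3.12 ± 0.52 (limma adjusted p = 9.78e-06) and RPF by 5.59 ± 0.64 (adjusted p = 4.89e-08) on the log2 scale. As Ccnd2 passed the filter through EpiLC libraries alone, these p-values are no evidence of direction. Pooled over libraries, 20 counts in ESCs against 131 in EpiLCs gave a ratio of 8.15 for total RNA (95% interval 5.07 to 13.8). In RPF, 8 against 170 counts gave a ratio of 38.9 (95% interval 19.3 to 91.6). These intervals are exact and cover counting error only, and the fitted folds depend on the small number added to the counts. Ccnd2 remained the lowest of the 10 genes per kb in all 4 groups.

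Ccnd3 (ENSMUSG00000034165.16, plus strand of chromosome 17, 47593700 to 47598776) went the other way. It had 77.9, 69.1 and 83.0 CPM in ESC total RNA and 25.7, 33.2 and 23.7 CPM in EpiLC total RNA. Its RPF values were 77.2, 80.0 and 87.6 CPM in ESCs and 34.2, 36.5 and 33.4 CPM in EpiLCs. All EpiLC libraries were under all ESC libraries. Total RNA changed by -1.52 ± 0.11 (limma adjusted p = 4.77e-12) and RPF by -1.25 ± 0.13 (adjusted p = 1.2e-08) on the log2 scale. Part of its coding sequence is shared with a copy, Ccnd3-ps. Of its 28-base stretches 39.6% also occur there, and of its 50-base stretches 18.3%. Only reads with 1 mapping position were counted, so its level is uncertain, and its TE more so because RPF reads were shorter than total RNA reads.

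As shares of the 3 D type cyclins, on counts per kb of counted sequence, Ccnd1 took 46.1%, 51.2% and 47.2% in ESC total RNA and 78.8%, 71.1% and 77.9% in EpiLC total RNA. In RPF its share was 69.4%, 72.8% and 72.4% in ESCs and 88.4%, 89.4% and 90.6% in EpiLCs. Ccnd3 took 51.5% ± 2.95 (SD, n = 3) in ESC total RNA, close to the share of Ccnd1, and 20.8% ± 3.51 in EpiLC total RNA. In RPF the Ccnd3 share was 28.4% ± 1.73 in ESCs and 7.81% ± 0.64 in EpiLCs. The share of Ccnd2 was 0.352% ± 0.27 and 3.27% ± 0.71 in total RNA and 0.113% ± 0.15 and 2.73% ± 0.80 in RPF. None of these shares overlapped between the cell types, and each gave p = 0.1 in a 2-sided exact permutation test, the smallest p that 3 against 3 libraries allow. These shares do not depend on the scaling between libraries. They do depend on the Ccnd3 reads lost to Ccnd3-ps, which can be more in RPF with its shorter reads, so that shares are not comparable between assays.

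**Figure D2:**
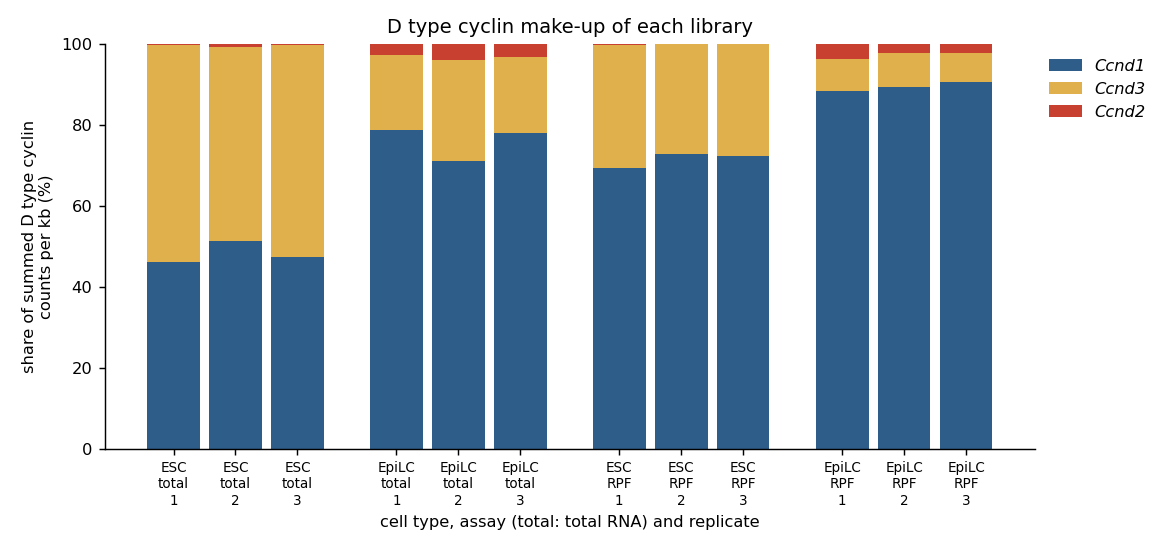
Share of the summed counts per kb of the D type cyclins (vertical axis, %) taken by Ccnd1 (blue), Ccnd3 (yellow) and Ccnd2 (red) in each of the 12 libraries. Ccnd1 filled 46.1% to 51.2% of ESC and 71.1% to 78.8% of EpiLC total RNA. In RPF it filled 69.4% to 72.8% in ESCs and 88.4% to 90.6% in EpiLCs.

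The summed D type cyclins were also set against Cdk4, their kinase partner, as a log2 ratio of counts per kb. In total RNA this ratio was -1.66 ± 0.06 (SD, n = 3) in ESCs and -1.89 ± 0.10 in EpiLCs. In RPF it was -0.49 ± 0.09 in ESCs and -0.22 ± 0.04 in EpiLCs. The cell types did not overlap in either assay (exact permutation p = 0.1 for both), and EpiLCs were lower in total RNA but higher in RPF. The sum includes Ccnd3, whose level is uncertain.

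The cyclins of later phases changed little. Ccne1 (ENSMUSG00000002068.16, minus strand of chromosome 7, 38098515 to 38106652), cyclin E1 of the entry into S phase, had 151, 162 and 159 CPM in ESC total RNA and 179.7, 179.8 and 199 CPM in EpiLC total RNA. Its RPF values were 172, 166 and 183 CPM in ESCs and 211, 219 and 247 CPM in EpiLCs. EpiLC libraries were higher in both assays without overlap. The log2 differences were 0.24 ± 0.07 (limma adjusted p = 0.0027) and 0.37 ± 0.08 (adjusted p = 0.000175), well under the fold limit.

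Ccna2 (ENSMUSG00000027715.9, minus strand of chromosome 3, 36566234 to 36571778), cyclin A2 of S phase and G2, had 332, 329 and 329 CPM in ESC total RNA and 363, 359 and 368 CPM in EpiLC total RNA. In RPF there were 396, 348 and 341 CPM in ESCs and 383, 359 and 376 CPM in EpiLCs. The total RNA groups stood apart by a small step and the RPF groups overlapped. The log2 differences were 0.14 ± 0.06 (limma adjusted p = 0.0346) and 0.05 ± 0.06 (adjusted p = 0.492). The first adjusted p depended on the fit, from 0.0341 to 0.19 over the other settings (0.19 with DESeq2) and from 0.0301 to 0.129 with 1 library left out, where it stayed below 0.05 only without EpiLC total RNA replicate 2.

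Ccnb1 (ENSMUSG00000041431.16, minus strand of chromosome 13, 100779678 to 100785879), the mitotic cyclin B1, had 120.1, 117 and 113 CPM in ESC total RNA and 115, 101 and 123 CPM in EpiLC total RNA. The RPF libraries had 128, 102 and 112 CPM in ESCs and 81.5, 101 and 128 CPM in EpiLCs. Both assays overlapped, and the RPF libraries of EpiLCs were the most spread. The log2 differences were -0.04 ± 0.10 (limma adjusted p = 0.738) and -0.16 ± 0.12 (adjusted p = 0.249), with 95% intervals of -0.24 to 0.16 and -0.41 to 0.08. The RPF value turned on the EpiLC libraries, at -0.01 without EpiLC RPF replicate 1 (limma adjusted p = 0.948) and -0.40 without replicate 3 (adjusted p = 0.00703), the ends of the range over the 12 libraries left out in turn. Of the 28-base stretches of Ccnb1, 92.1% also occur in transcripts of 7 other genes, among them Ccnb1-ps, and 82% of its 50-base stretches do so in 6. Its counts rest on the small unique part and its level and TE are uncertain.

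The kinases had the most counts per kb of the 10 and did not reach the fold limit. Ccnb1, whose level is uncertain, cannot be ranked against them. Cdk1 (ENSMUSG00000019942.13, minus strand of chromosome 10, 69338498 to 69346223), the mitotic kinase, had 344, 346 and 344 CPM in ESC total RNA and 339.8, 296 and 338 CPM in EpiLC total RNA. In RPF it had 720.2, 668 and 754 CPM in ESCs and 699.7, 704 and 794 CPM in EpiLCs. EpiLC total RNA lay just under ESC total RNA, the RPF groups overlapped, and RPF was far above total RNA in either cell type. The log2 differences were -0.08 ± 0.06 (limma adjusted p = 0.291, 95% interval -0.21 to 0.05) and 0.03 ± 0.06 (adjusted p = 0.671, 95% interval -0.10 to 0.16). The adjusted p for total RNA depended on the fit, from 0.0269 to 0.306 over the other settings, with changes of -0.14 to -0.08. With 1 library left out it ranged from 0.11 to 0.855.

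Cdk4 (ENSMUSG00000006728.12, plus strand of chromosome 10, 127064281 to 127067021), the G1 kinase, had 489, 479.8 and 491 CPM in ESC total RNA and 532, 483 and 516 CPM in EpiLC total RNA. Its RPF values were 396, 426 and 439 CPM in ESCs and 541, 519 and 561 CPM in EpiLCs. The total RNA groups overlapped while all EpiLC RPF libraries were above all ESC RPF libraries. The log2 differences were 0.07 ± 0.05 (limma adjusted p = 0.214) and 0.37 ± 0.06 (adjusted p = 1.01e-05), under the fold limit. Of its 28-base stretches 4.3%, and of its 50-base stretches 0, also occur in transcripts of other genes, so that the shorter RPF reads can be lost there.

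As a log2 ratio of counts per kb to Cdk1, Ccna2 was at -0.59 ± 0.01 (SD, n = 3) in ESC and -0.36 ± 0.10 in EpiLC total RNA without overlap (exact permutation p = 0.1). In RPF this ratio was -1.511 ± 0.15 and -1.5002 ± 0.10 and overlapped (exact permutation p = 1). The ratio of Ccnb1 to Cdk1 was -2.12 ± 0.04 and -2.08 ± 0.06 in total RNA and -3.21 ± 0.14 and -3.40 ± 0.24 in RPF, and overlapped in both (exact permutation p = 0.4 for each). Reads of Ccnb1 can be lost to shared sequence, and more so in RPF with its shorter reads. The size of this ratio and its difference between assays are thus uncertain.

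Cdk1 and Ccnb1, which are known to be switched on together before mitosis, were the pair whose promoters are printed, since both held CCAAT letters a fixed step apart. Promoters were the RefSeq windows of 250 bases before to 50 after each gene start (GRCm38.p6), and 7 of the 10 genes had at least 1, with 9 windows in all. Ccnd1, Ccnd2 and Ccna2 had no entry. CCAAT was searched on both strands and was found in 37.4% of 32851 promoters, and TTTGAA, the letters of the CHR element, in 17.9%. The stretches from base -130 to -1 are shown with CCAAT, or ATTGG where it lies on the other strand, in capitals.
Cdk1, chr10:69352913-69353042, minus strand: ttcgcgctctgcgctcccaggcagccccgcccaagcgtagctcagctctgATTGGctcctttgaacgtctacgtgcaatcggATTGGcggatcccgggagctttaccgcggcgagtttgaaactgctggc
Ccnb1, chr13:100786487-100786616, minus strand: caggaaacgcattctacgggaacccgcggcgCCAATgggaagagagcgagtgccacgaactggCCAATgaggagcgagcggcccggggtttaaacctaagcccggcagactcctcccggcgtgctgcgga
The boxes started at -80 and -48 in Cdk1 and at -99 and -67 in Ccnb1, 32 bases apart in both. That spacing was chosen after these windows were seen, and 0.332% of all promoters held such a pair. Cdk1 had TTTGAA at -71 and -15, and Ccnb1 had none in its window. Only these letters were searched, so that their absence does not show that Ccnb1 lacks the element. A match is a description, and neither binding nor promoter use was measured. Neither gene was called in total RNA or RPF.

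The inhibitors parted. Cdkn1a (ENSMUSG00000023067.13, plus strand of chromosome 17, 29098453 to 29099393), which encodes p21 and is a classic p53 target, had 33.9, 24.8 and 36.9 CPM in ESC total RNA and 13.4, 14.7 and 11.7 CPM in EpiLC total RNA. In RPF there were 98.4, 95.1 and 97.3 CPM in ESCs and 53.9, 51.0 and 36.8 CPM in EpiLCs. All EpiLC libraries were below all ESC libraries, and EpiLC RPF replicate 3 was the lowest of the RPF libraries. On the log2 scale the change was -1.26 ± 0.16 in total RNA (limma adjusted p = 3.2e-07) and -1.09 ± 0.14 in RPF (adjusted p = 2.35e-07). Without EpiLC RPF replicate 3 the RPF value was -0.91 (limma adjusted p = 6.83e-06, the highest of the 12 fits without a library), under the fold limit.

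Cdkn1b (ENSMUSG00000003031.14, plus strand of chromosome 6, 134920965 to 134922074), which encodes p27, had 38.1, 40.6 and 41.7 CPM in ESC total RNA and 49.6, 45.8 and 46.4 CPM in EpiLC total RNA. The RPF libraries had 60.8, 56.2 and 65.5 CPM in ESCs and 86.9, 73.8 and 78.4 CPM in EpiLCs. EpiLC libraries were higher in both assays without overlap. The log2 differences were 0.25 ± 0.09 (limma adjusted p = 0.0169) and 0.38 ± 0.10 (adjusted p = 0.00141), under the fold limit. The adjusted p for total RNA ranged from 0.0167 to 0.09 over the other settings, with 0.0729 by DESeq2, 0.0582 without a filter and 0.0877 with the GC correction. With 1 library left out it ranged from 0.0153 to 0.092, above 0.05 without replicate 1 of ESC or of EpiLC total RNA. The log2 ratio of Cdkn1a to Cdkn1b per kb went from -0.02 ± 0.31 (SD, n = 3) to -1.502 ± 0.18 in total RNA and from 1.012 ± 0.10 to -0.44 ± 0.29 in RPF. Ribosome footprints per kb thus favoured Cdkn1a in each ESC library and Cdkn1b in each EpiLC library (exact permutation p = 0.1 in both assays).

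**Figure D3:**
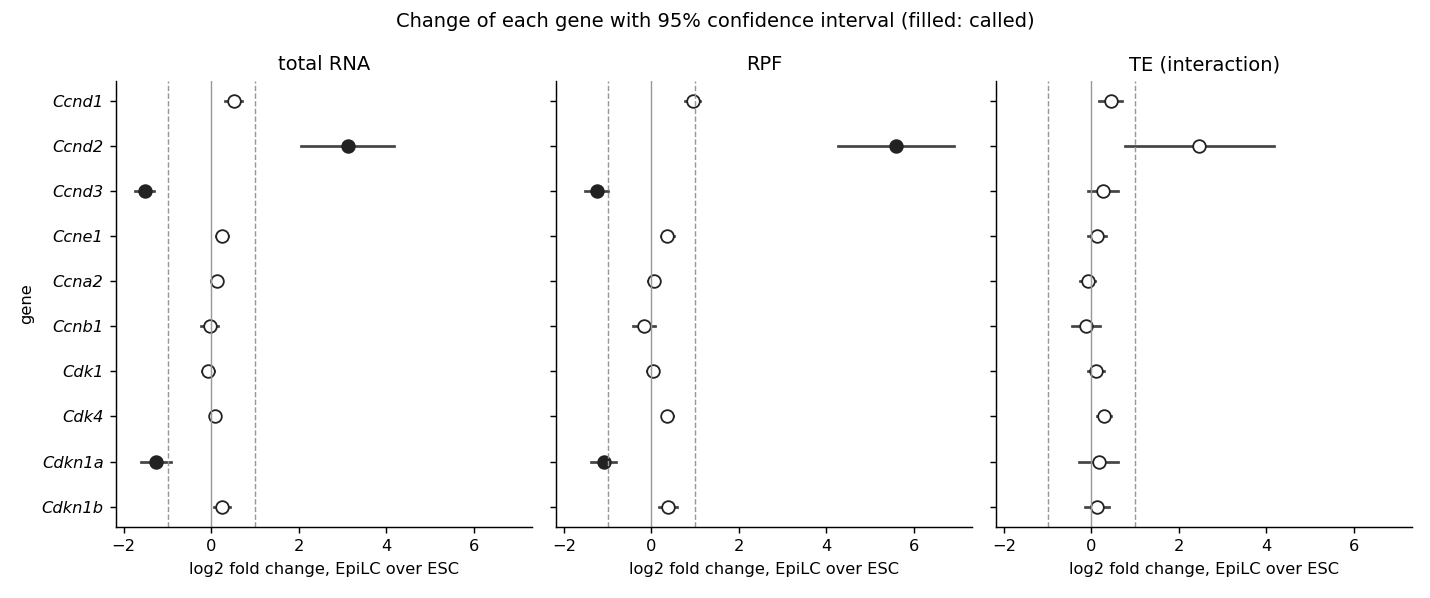
Log2 fold change of EpiLC over ESC (horizontal axis, the same in all panels) with its 95% confidence interval for each gene in total RNA, RPF and TE, filled where called and open where not, with dashed lines at the fold limit of 1 in either direction. Ccnd2, Ccnd3 and Cdkn1a were called in total RNA and RPF, and no gene was called for TE.

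No gene of the group was called for TE by limma, edgeR, DESeq2 or limma-trend, and 3 had an unadjusted limma p below 0.05. Over all tested genes, 0.136% were called higher and 0.119% lower in TE, and 0.57% and 0.63% by adjusted p alone. These 3 were Cdk4, at 0.29 ± 0.08 (limma adjusted p = 0.0678, 95% interval 0.13 to 0.46), Ccnd1, at 0.44 ± 0.13 (adjusted p = 0.0788, 0.18 to 0.70), and Ccnd2, at 2.47 ± 0.82 (adjusted p = 0.143, 0.77 to 4.17) on the log2 scale. DESeq2 gave an adjusted p of 0.0377 for Cdk4 and 0.0441 for Ccnd1, with changes still under the fold limit. Over all other settings of the fit the adjusted p ranged from 0.0377 to 0.104 for Cdk4 and from 0.0441 to 0.138 for Ccnd1. With 1 library left out it ranged from 0.0426 to 0.188 and from 0.0197 to 0.196, lowest for both without ESC RPF replicate 3. For the other 7 the adjusted p was 0.514 to 0.786 and the change -0.12 to 0.27. The interval of Ccnd3 was -0.08 to 0.62, that of Cdkn1a -0.27 to 0.61 and that of Ccnb1 -0.44 to 0.19, so that changes within these intervals are not excluded.

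Apart from Ccnd2, the level of TE ranged more widely between the genes than between the cell types. On the log2 scale, as mean log2 CPM in RPF minus that in total RNA, Cdkn1a was at 1.62 ± 0.17 (SE) in ESCs and 1.81 ± 0.20 in EpiLCs, at percentile 98.3 of the 11750 genes in both. Ccnd1 was at 1.52 ± 0.13 and 1.99 ± 0.08, at percentiles 97.8 and 98.9. Cdk1 was at 1.05 ± 0.05 and 1.17 ± 0.09, at percentiles 93 and 93.4, and Cdkn1b at 0.60 ± 0.07 and 0.75 ± 0.08, at percentiles 80.4 and 83.5. These genes thus carried more footprints for their RNA than most, with Cdkn1a and Ccnd1 beyond the 95th percentile in both cell types. Ccne1, Ccna2, Ccnd3, Ccnb1 and Cdk4 ranged from -0.21 to 0.35, between percentiles 41.2 and 67.1. Ccnd2 was at 1.46 ± 0.27 in EpiLCs (percentile 96.7), while its ESC value of -1.23 ± 1.22 rested on 8 RPF counts. Counting left out the first 45 nt of the coding sequence, a larger part of a short gene such as Cdkn1a (435 counted nt).

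**Figure D4:**
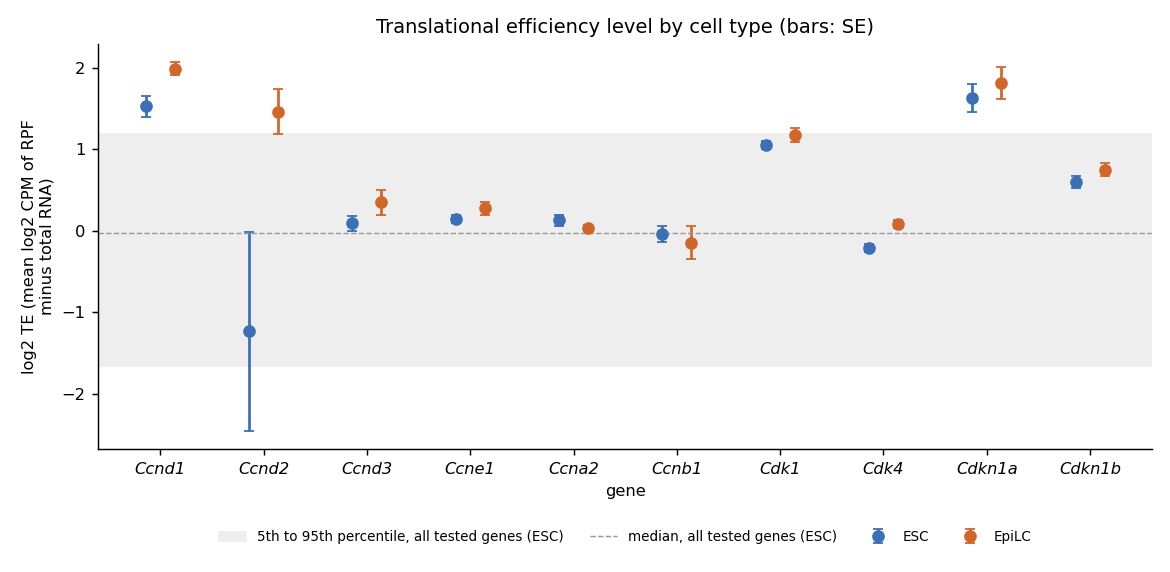
Log2 TE of each gene (vertical axis) in ESCs (blue) and EpiLCs (orange), with SE bars, over a grey band from the 5th to the 95th percentile of all tested genes in ESCs and a dashed line at their median. Ccnd1 and Cdkn1a lay above the band in both cell types, and Ccnd2 in EpiLCs.

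Per kb, the order of levels in ESC total RNA was Cdk4, at 561 ± 7.05 CPM per kb (SD, n = 3), then Cdk1, Ccna2 and Ccne1, at 406 ± 1.32, 269.8 ± 1.26 and 133 ± 4.80, and then Ccnb1, Ccnd3, Ccnd1, Cdkn1a and Cdkn1b, at 73.1 to 93.5, whose neighbours overlapped. In EpiLC total RNA Cdk4, Cdk1, Ccna2 and Ccne1 led in the same order, Ccnd1 followed at 120.7 ± 9.17 and stood clear of its neighbours, and Ccnd3 and Cdkn1a were last before Ccnd2, at 33.0 ± 5.97 and 30.5 ± 3.52, and overlapped. In ESC RPF Cdk1 led at 841 ± 51.1, followed by Cdk4 at 485 ± 25.5 and Ccna2 at 295.5 ± 24.6, with Ccnd1 (248 ± 33.1) and Cdkn1a (223 ± 3.94) overlapping behind them. In EpiLC RPF Ccnd1 ranked 3 at 478 ± 27.99, without overlap with Cdk4 at 623 ± 24.3 or Ccna2 at 305 ± 10.3. Cdkn1a ranked 7 there, at 109 ± 21.1, and overlapped with Ccnb1. The counts of Ccnb1 and Ccnd3 were divided by their full counted length, part of which is shared with other genes. Their places in these orders are thus uncertain, and Ccnb1 may belong higher.

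Around these genes, the pathway was described with lists of other cell cycle genes. Of all tested genes, 14.6% were called higher and 9.7% lower in total RNA, and 15.4% and 10.6% in RPF. Of 5 other cyclins tested, 1 rose in each assay, Ccng2, which is known from cells that stop dividing. It went from 63 to 113 counts per library in ESC total RNA to 131 to 254 in EpiLC total RNA, which on the log2 scale was 1.44 ± 0.17 (limma adjusted p = 4.69e-08), and RPF changed by 1.47 ± 0.31 (adjusted p = 0.000205). Of 5 other CDK inhibitors tested, 1 rose in each assay, Cdkn1c, which encodes p57, of the same family as p21 and p27. Cdkn1c had 1.75 to 2.36 CPM in ESC total RNA and 20.7 to 24.2 CPM in EpiLC total RNA, and 3.30 to 8.08 and 66.1 to 101.5 CPM in RPF. The log2 changes were 3.45 ± 0.33 in total RNA (limma adjusted p = 1.83e-09) and 3.998 ± 0.26 in RPF (adjusted p = 1.33e-12). The 3 members of this inhibitor family thus differed, with Cdkn1c higher, Cdkn1a lower and Cdkn1b within the fold limit.

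Of 13 genes for pocket proteins, E2F factors and their DP partners, 1 was called higher and 1 lower in total RNA. In RPF none was called. Beside these stand 14.6% called higher and 9.7% lower of all tested genes in total RNA, and 15.4% and 10.6% in RPF. Rb1, the retinoblastoma protein that D type cyclins with Cdk4 phosphorylate, rose by 1.16 ± 0.11 (limma adjusted p = 2.63e-09) in total RNA and had 0.75 ± 0.20 in RPF (adjusted p = 0.00197). E2f2, an activator of S phase genes, had -1.53 ± 0.24 in total RNA (limma adjusted p = 5.56e-06) and -0.46 ± 0.38 in RPF (adjusted p = 0.301). Its RPF counts per library were only 15 to 45 in ESCs and 6 to 17 in EpiLCs. E2f2 had at most 2.98 CPM in EpiLC total RNA and reached 3 CPM in EpiLC RPF only in replicate 1 (17 counts). It could not have passed the filter without ESC libraries, so that its call as lower is no evidence of direction. In RPF 9 of the 13 had an unadjusted limma p below 0.05, beside 63.7% of all tested genes, and edgeR and DESeq2 called none. Rb1 and E2f2 were not called for TE (adjusted p = 0.433 and 0.271).

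None of 12 S phase genes was called in either assay by limma, edgeR or DESeq2. Of all tested genes limma called 14.6% higher and 9.7% lower in total RNA, and 15.4% and 10.6% in RPF. In each assay 10 of the 12 had an unadjusted limma p below 0.05, as did 68% of all tested genes in total RNA and 63.7% in RPF. By adjusted p alone 9 were lower and 1 higher in total RNA, with a median log2 fold change of -0.34, beside 30.7% and 34.6% of all genes. In RPF 8 were lower and 1 higher, with a median of -0.45, beside 28.7% and 31.1%. Prim1, a primase subunit, had -0.72 in total RNA and -0.86 in RPF, and Rrm1, a ribonucleotide reductase subunit and the 1 gene on the higher side, had 0.15 and 0.30. Both were chosen here as the ends of the list. Of 14 G2 and M phase genes 1 was called, Mki67, the gene of the proliferation antigen Ki-67, which rose in RPF by 1.08 ± 0.10 (limma adjusted p = 1.19e-09) and had 0.82 ± 0.08 in total RNA. By adjusted p alone 7 of the 14 were higher and 2 lower in total RNA, with a median log2 fold change of 0.10, and 5 and 3 in RPF, with a median of 0.05.

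No gene was called by limma, edgeR or DESeq2 among 3 other CDKs and CKS subunits, 12 CDK-activating and transcriptional cyclins and CDKs, 5 CDK phosphatases and kinases and 12 ubiquitin ligase parts. Of all tested genes limma called 14.6% higher and 9.7% lower in total RNA, and 15.4% and 10.6% in RPF. At an unadjusted limma p below 0.05 these lists had 3, 11, 4 and 7 genes in total RNA and 2, 10, 4 and 5 in RPF. The shares of all tested genes there were 68% and 63.7%. Their median log2 fold changes were 0.33, 0.18, 0.04 and -0.05 in total RNA and 0.17, -0.24, -0.22 and -0.08 in RPF. Cks2, Cdkn2c, Ccna1 and Ccnb3 did not pass the filter on low values. For TE no gene of any of these lists was called by the same tools, and the number with an unadjusted limma p below 0.05 was between 0 and 5 per list, beside 13.9% of all tested genes. By adjusted p alone 4 list genes passed for TE, all lower and under the fold limit, while 0.63% of all genes were lower. They were Ccng1, at -0.72 (limma adjusted p = 0.0239), Bub1, at -0.49 (0.0316), Ccnk, at -0.68 (0.0382), and Kif11, at -0.34 (0.0397), and they are named because their values were seen.

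**Figure D5:**
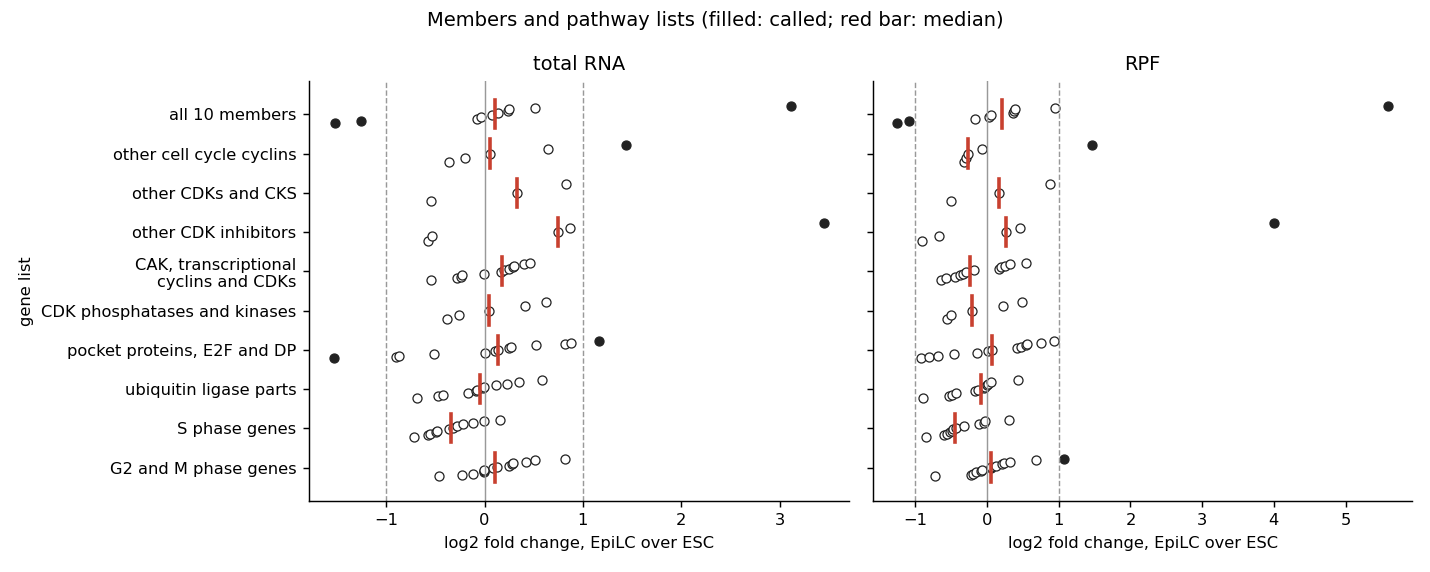
Log2 fold change of EpiLC over ESC (horizontal axis) of the 10 genes and of each pathway list (rows) in total RNA and RPF, 1 point per tested gene, filled where called, with a red bar at the list median and dashed lines at the fold limit. Beside the 10 genes, Ccng2 and Cdkn1c lay beyond the limit in both assays, Rb1 and E2f2 in total RNA and Mki67 in RPF.

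The tested gene closest in pattern was taken for each of the 10 as the one with the smallest root mean square difference of mean-centred log2 CPM over the 12 libraries. It was Reep5 for Ccnd1 (0.17), Zfp467 for Ccnd2 (0.51), Etfb for Ccnd3 (0.14), Exosc2 for Ccne1 (0.05), Ddx6 for Ccna2 (0.06), Pcna for Ccnb1 (0.10), Mrpl10 for Cdk1 (0.08), Atp13a1 for Cdk4 (0.06), Sparc for Cdkn1a (0.21) and Hyou1 for Cdkn1b (0.07). The distance was widest for Ccnd2, whose ESC counts were the lowest. The 12 points of each pattern share assay, depth and cell type.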

How the data were processed

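RPF and total RNA libraries of ESCs and EpiLCs were grouped and numbered by their titles. Raw counts, 1 per gene and library, are what the authors deposited. Per the study's methods and the submitters' processing notes, adapters were trimmed with cutadapt 1.14, keeping lengths set separately for RPF and total RNA, reads with 1 position were kept with STAR 2.5.3a (mm10, Gencode M14), and 5′ ends on the sense strand were counted with featureCounts 1.5.3 over coding sequence without its first 45 nt. How PCR duplicates were treated is not given in the sources used here, so count intervals and floors cover counting error only.

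Genes with at least 3 CPM in at least 3 libraries (11750) were scaled with TMM (edgeR 4.0.16) and fitted with voom and limma 3.58.1 in R 4.3.3, in 1 model of 4 groups over all 12 libraries with no replicate block. Contrasts were EpiLC against ESC for total RNA and RPF and their interaction (TE), all 2-sided. P-values were adjusted by Benjamini-Hochberg over all genes tested. Shares and ratios were tested by exact permutation. Chi-square per degree of freedom was 2.46 to 7.19 over same-group pairs, so no pair agreed within sampling noise and each library was counted as a replicate. Alternatives were edgeR, DESeq2 1.42.0, limma-trend, other scalings and filters, no fold limit, blocks, each library left out, and a GC correction chosen after seeing the data. The 10 genes and the lists were chosen with earlier results of these data known. Genes named were the 10, the markers, up to 3 called genes per direction of each list, and the nearest gene of each of the 10. Shared stretches, UTRs and promoters came from Gencode M21 and RefSeq.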

Additional observations from a re-analysis of the deposited data

How the results depend on the processing

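Over the alternatives other than leaving out a library, the counts of called genes of the group were 1 higher and 2 lower in total RNA and RPF and 0 in TE, with these exceptions. With at least 10 counts in every library, 0 were higher in total RNA and 0 in RPF, since Ccnd2 was removed. With no fold limit, 5 were higher in each. Leaving out each library gave 1 to 1 higher in total RNA, 1 to 2 higher in RPF (2 without ESC RPF replicate 3) and 1 to 2 lower in RPF (1 without EpiLC RPF replicate 3). The EpiLC minus ESC change of the log2 ratio of Ccna2 to Cdk1 in RPF, 0.01, ranged from -0.0709 to 0.0714 and was negative without ESC RPF replicate 3 (-0.0709) or EpiLC RPF replicate 1 (-0.0416). Small log2 fold changes also turned sign when a library was left out. Ccnb1 mRNA ranged from -0.0854 to 0.0284 (positive without EpiLC total RNA replicate 2) and Ccnb1 TE from -0.3257 to 0.0619 (positive without EpiLC RPF replicate 1). Ccna2 RPF ranged from -0.0305 to 0.0791 (negative without ESC RPF replicate 2 or 3 or EpiLC RPF replicate 1) and Cdk1 RPF from -0.0619 to 0.0458 (negative without ESC RPF replicate 1 or 2 or EpiLC RPF replicate 3). Deviations of same-numbered libraries from their group means had r = -0.0127 to 0.0401 between cell types and -0.182 to 0.163 between assays, and the titles do not say what a number shares, so the numbers were not treated as pairs. With the replicate block 1 was higher and 2 lower in total RNA and in RPF and 0 in TE, and so too with a block joining RPF and total RNA of a cell type and number, while with the first block the adjusted p (limma) for TE was 0.0446 for Ccnd1 and 0.0449 for Cdk4, at 0.44 and 0.30. Over all alternatives 254 of 262 values of counts, shares and ratios and 729 of 747 values of single genes kept their side and direction. Some of these could not differ. For shares and ratios the replicate block gives the main value by construction, and for ratios of 2 genes so does leaving out the length. For single genes the side is the call, so an adjusted p that crossed 0.05 with a change under the fold limit was counted as kept. Calls of all genes under the GC correction were 1596 higher and 1229 lower in total RNA, against 1712 and 1140. With 3 libraries a group, few reads limit Ccnd2 and shared sequence limits Ccnb1 and Ccnd3.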
